A study of Homo sapiens with 12 samples.

Results

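miR-31 is made from a single hairpin precursor, MIR31, and its 2 strands, hsa-miR-31-5p and hsa-miR-31-3p (miR-31-5p and miR-31-3p below), are 2 of the 2588 mature miRNAs in the count table. They were taken from the table by name, and both were kept among the 491 miRNAs that passed a filter on low counts. The strands were selected on their read counts, and so on their levels, shares and strand ratio over the 3 time points in these same libraries; their values are therefore a description. They were part of the fit over all tested miRNAs, and which thresholds they passed in it is stated without being taken as evidence of a change. The data come from A549, a human cell line derived from a lung adenocarcinoma and labelled as alveolar basal epithelial cells, in which TGF-β was used to induce epithelial-to-mesenchymal transition (EMT). Small RNA was sequenced before treatment (0 h) and after 24 and 96 h of TGF-β, with 2 libraries per time point, each sequenced in 2 runs, which gave 12 runs. All libraries came from the same parental line, and no untreated culture of 24 or 96 h was analysed here, so that the effect of TGF-β and the time in culture cannot be told apart. The labels do not state that the 2 libraries of a time point came from separate cultures, so the spread between them may be technical. The smallest p that an exact two-sided permutation test of 2 libraries against 2 allows is 0.333.

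A miRNA precursor is cut by Drosha and Dicer into a short duplex, of which one strand is loaded into an Argonaute protein while the other is mostly degraded. The loaded strand recognizes messenger RNAs mainly through its seed, the bases near its 5′ end. miR-31 has been studied as a regulator of cell migration and invasion, with RHOA and the integrin subunit ITGA5 among its known targets, and has been described both as a suppressor of metastasis in breast cancer and as a promoter of growth in lung cancer.

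The mature sequence of miR-31-5p and the precursor are shown because they identify the strand counted below and because its seed sets it apart from the other miRNAs measured. Both were taken from RefSeq (GRCh38.p14), which matched 1 of the 2 strands, miR-31-5p, and 2281 of the 2588 mature names. Capitals mark the seed, bases 2 to 8, in the mature sequence and the whole of miR-31-5p, bases 8 to 28, in the precursor.
miR-31-5p: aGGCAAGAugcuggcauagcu
MIR31 precursor: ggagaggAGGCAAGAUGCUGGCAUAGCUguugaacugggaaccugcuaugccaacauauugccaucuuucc
Of the other miRNAs with a RefSeq sequence, 0 shared bases 2 to 8 of miR-31-5p. The shorter match of bases 2 to 7 was shared by 1, miR-6809-5p, for which the 0 h libraries held 0 and 2 reads, the 24 h libraries 0 and 0, and the 96 h libraries 1 and 0. Among the matched names, miR-31-5p was thus the one abundant miRNA with this seed. The precursor of 71 bases was predicted by RNAfold to fold with a free energy of −36.8 kcal/mol, with 17 of the 21 bases of miR-31-5p and 6 of the 7 seed bases paired. On GRCh37, the build named in the submitters' processing notes as hg19, MIR31 lies on the minus strand at chr9:21512114-21512184, and miR-31-5p at chr9:21512157-21512177. The gene lies in introns of the long non-coding RNA MIR31HG, which is transcribed from the same strand: 21 annotated transcripts of MIR31HG spanned MIR31, and 0 of their exons overlapped it. The tumor suppressor gene CDKN2A, which A549 cells are known to have lost, lies 456 kb away and the metabolic gene MTAP 290 kb away. Reads of both miR-31 strands were present in all 6 libraries. The nearest other miRNA gene, MIR491, lies 796 kb away.

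The libraries held between 2335185 and 5971197 reads of mature miRNAs, and their totals were higher at 96 h than at 0 and 24 h. miR-21-5p, the most abundant miRNA, took 56.1 and 52.4% of these reads in the 0 h libraries, 56.8 and 58.1% in those of 24 h, and 65.5 and 63.8% in those of 96 h. Since 1 miRNA holds so much of each library, levels were scaled by TMM, which sets the libraries to each other by the miRNAs that move little, and the shares of all reads are given beside them. The TMM factors ranged from 0.738 to 1.36 and were lowest at 96 h. The markers of the labelled cell type were low: the 7 epithelial miRNAs, the miR-200 family, miR-203a-3p and miR-205-5p, summed to 126 CPM (a count scaled to the size of its library) in each 0 h library, and miR-205-5p had 0 to 3 reads in any library.

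miR-31-5p was among the most abundant miRNAs of these cells and had higher TMM-normalized levels after TGF-β than before. The 0 h libraries held 11991 and 21157 of its reads, the 24 h libraries 26309 and 21789, and the 96 h libraries 38581 and 36419. On the TMM scale the 0 h libraries stood at 4393 and 6313 CPM, the 24 h libraries at 9791 and 6665 CPM, and the 96 h libraries at 8754 and 9878 CPM. Both libraries of 24 h and both of 96 h lay above both of 0 h, but 24 h replicate 2 exceeded 0 h replicate 2 only slightly, and 24 h replicate 1 lay between the 96 h libraries. The means were 5353 ± 1358 CPM at 0 h, 8228 ± 2210 CPM at 24 h, and 9316 ± 795 CPM at 96 h (SD, n = 2 libraries). Relative to 0 h, the fit over all tested miRNAs gave miR-31-5p a log2-fold change at 24 h of 0.62 (standard error 0.22), a 1.54-fold higher level, and at 96 h of 0.80 (standard error 0.22), a 1.74-fold higher level. Between 24 and 96 h the log2-fold change was 0.18 with a standard error of 0.22, and the libraries overlapped. None of the 3 changes of miR-31-5p passed the thresholds for differential expression, an adjusted p under 0.05 in edgeR's quasi-likelihood test and an absolute log2-fold change above 1, nor did any in DESeq2.

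miR-31-3p, the less abundant strand, was also higher after TGF-β. The 0 h libraries held 515 and 790 of its reads, the 24 h libraries 1005 and 1129, and the 96 h libraries 2086 and 1536. These were 189 and 236 CPM, 374 and 345 CPM, and 473 and 417 CPM in the same order. The 3 time points were ordered without overlap, with 0 h lowest and 96 h highest. The means were 212 ± 33.3 CPM at 0 h, 360 ± 20.3 CPM at 24 h, and 445 ± 40.1 CPM at 96 h (SD, n = 2 libraries). Relative to 0 h, the log2-fold change of miR-31-3p at 24 h was 0.76 (standard error 0.16) and at 96 h 1.07 (standard error 0.16), the latter a 2.10-fold higher level. From 24 to 96 h it was 0.31 (standard error 0.16). In the same fit, 1 of the 3 changes of miR-31-3p passed both thresholds, that of 96 h against 0 h, which is given as a description like the other values of this strand. It lay just past the threshold on the fold change and fell below it without 0 h replicate 1, at 0.96, and without 96 h replicate 1, at 0.998. The value of miR-31-5p lay on the other side of that threshold but passed it when 0 h replicate 2 was left out, with a log2-fold change of 1.09.

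**Figure D1:**
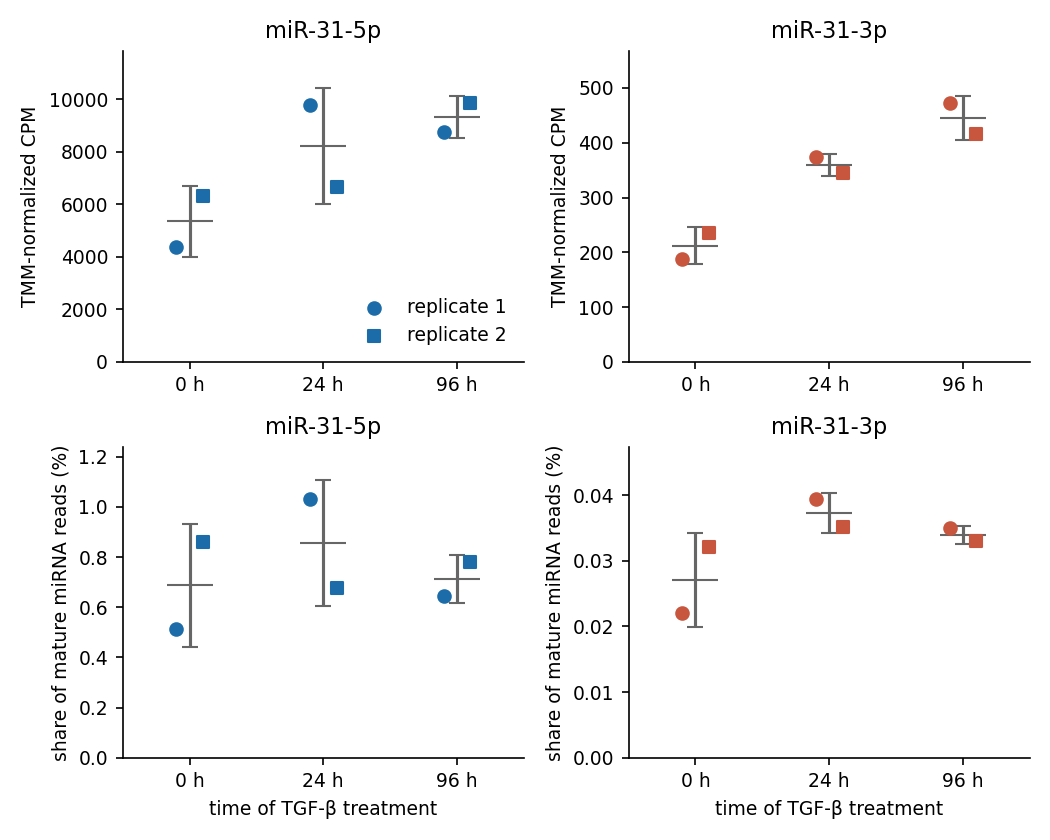
TMM-normalized CPM (upper panels) and share of all mature miRNA reads in percent (lower panels) of miR-31-5p and miR-31-3p against the hours of TGF-β treatment. Circles and squares are the 2 libraries of a time point, and the horizontal line and bar are their mean and SD; on the TMM scale all libraries of 24 and 96 h lie above those of 0 h, whereas as a share of reads the 3 time points of miR-31-5p overlap.

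These changes have to be read against those of all miRNAs. At 96 h, 25.9% of the 491 tested miRNAs passed both thresholds relative to 0 h, 12.6% higher and 13.2% lower, so that miR-31-3p was 1 of 62 miRNAs called higher. At 24 h, 3.46% passed, and between 24 and 96 h 5.91%. Libraries that did not overlap were more common still: for 33% of the tested miRNAs both 96 h libraries lay above both 0 h libraries, as they did for both strands of miR-31. For 29.3% both 24 h libraries lay above those of 0 h, again with both strands among them, and for 30.3% both 96 h libraries lay above those of 24 h, with miR-31-3p among them. Ordered by log2-fold change from the highest, miR-31-3p took rank 48 of 491 in the 24 h comparison and rank 69 in the 96 h comparison, and miR-31-5p ranks 67 and 98. The absolute change of miR-31-5p at 96 h was larger than that of 55% of the tested miRNAs, and that of miR-31-3p larger than that of 69.7%. Over all tested miRNAs the median was −0.0040 at 24 h and −0.099 at 96 h. The comparisons with 0 h share the same 0 h libraries.

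As a share of the reads, the account of miR-31-5p was different. miR-31-5p made up 0.513% (95% Wilson interval 0.504 to 0.523) and 0.861% (0.850 to 0.873) of the mature miRNA reads in the 0 h libraries, 1.03 and 0.678% in those of 24 h, and 0.646 and 0.782% in those of 96 h. Both 96 h libraries and 24 h replicate 2 lay between the 0 h libraries, and the means of 0.687 ± 0.246%, 0.856 ± 0.251%, and 0.714 ± 0.0959% (SD, n = 2 libraries) differed by less than the SD at 0 h. For each read of miR-31-5p, the 0 h libraries held 109 and 60.9 reads of miR-21-5p, the 24 h libraries 55 and 85.8, and the 96 h libraries 101 and 81.6, which also overlapped between all time points. Among all mature miRNAs, miR-31-5p took ranks 19 and 13 by reads in the 0 h libraries, 9 and 13 in those of 24 h, and 10 and 9 in those of 96 h.

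The share of miR-31-3p was 0.0221 and 0.0322% in the 0 h libraries, 0.0395 and 0.0351% in those of 24 h, and 0.0349 and 0.0330% in those of 96 h. The libraries of 24 and 96 h lay above those of 0 h, but 96 h replicate 2 was close to 0 h replicate 2, and their 95% Wilson intervals of 0.0314 to 0.0347% and 0.0300 to 0.0345% overlapped. On this scale both 96 h libraries lay above both 0 h libraries in 14.1% of the tested miRNAs, and both 24 h libraries in 12%. The 96 h libraries of miR-31-3p lay above those of 24 h on the TMM scale, as in 30.3% of the tested miRNAs, and below them in share. How many tested miRNAs lay below in share was not counted, but scaled to totals their median log2-fold change was −0.49. The gap in share was small, since 24 h replicate 2 (0.0351%) and 96 h replicate 1 (0.0349%) had overlapping 95% Wilson intervals, 0.0331 to 0.0372% and 0.0335 to 0.0365%. These intervals hold the counting error alone, as the reads carry no molecular identifiers and several may stem from 1 molecule. In bulk RNA, more cells that make miR-31 and more miR-31 in each cell cannot be told apart.

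The scaling therefore decided the size of the change. When the libraries were scaled to their totals, the change at 96 h relative to 0 h on the log2 scale was 0.055 for miR-31-5p and 0.32 for miR-31-3p, and the median of all tested miRNAs moved to −0.83. A change of scaling moves all miRNAs of a library alike, so the distance of each strand from the median is nearly fixed by construction. With total counts without miR-21-5p the values were 0.44 and 0.71 with a median of −0.44, and with DESeq2's size factors 0.87 and 1.14 with a median of −0.026. At 24 h, the values under total counts were 0.32 for miR-31-5p and 0.46 for miR-31-3p, with a median of −0.30. Between 24 and 96 h the sign itself depended on the scaling, since under total counts the log2-fold changes were −0.26 for miR-31-5p and −0.14 for miR-31-3p with a median of −0.49. Among all miRNAs, total counts gave 23 higher and 192 lower calls at 96 h where TMM gave 62 and 65.

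**Figure D2:**
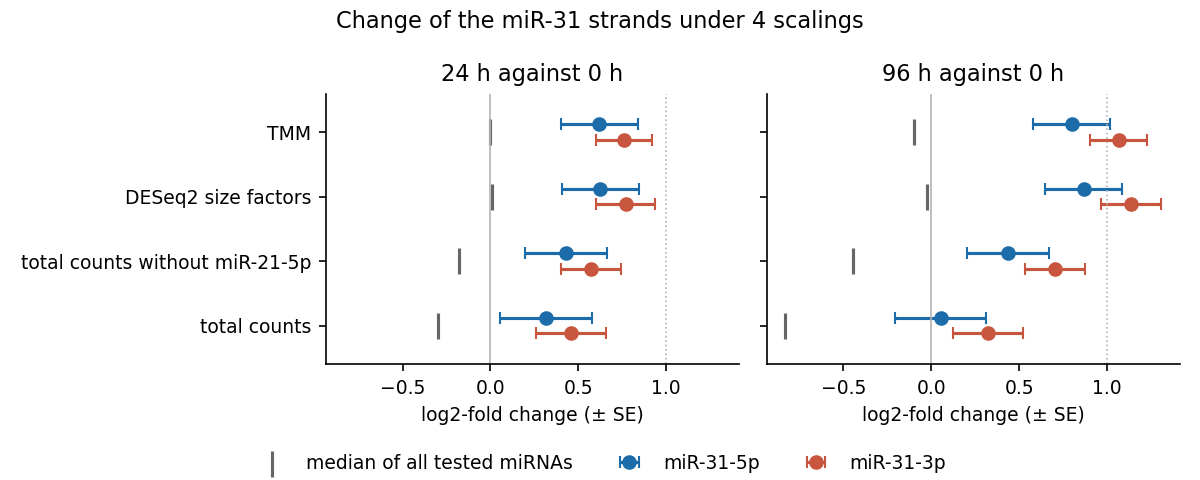
log2-fold change of miR-31-5p and miR-31-3p at 24 h (left) and 96 h (right) relative to 0 h under 4 ways of scaling the libraries. Points are fitted values with their standard error, grey ticks the median of all tested miRNAs, and the dotted line the fold change threshold; the strands and the median shift together from one scaling to the next, and at 96 h miR-31-5p is close to 0 with total counts.

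The libraries of a time point differed more in miR-31-5p than in most miRNAs with at least 100 CPM, a set that spans a wide range of levels. On the TMM scale, replicate 2 was 1.44-fold higher than replicate 1 at 0 h and 1.47-fold lower at 24 h, while at 96 h it was 1.13-fold higher. Among the 153 miRNAs of that set, these absolute differences were larger than those of 81.7% at 0 h, 94.8% at 24 h, and 64.1% at 96 h. Counting error alone would give a log2 SD of 0.011 to 0.016 for these differences, far less than the 0.52 and −0.55 seen at 0 and 24 h. miR-31-3p was less spread, with log2 differences of 0.32 at 0 h, −0.12 at 24 h, and −0.18 at 96 h, larger than those of 64.7%, 45.1%, and 66.7% of the same miRNAs. The direction of the difference between replicates was thus the same for both strands at 0 and 24 h and opposite at 96 h.

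The 2 runs of a library could be separated in 5 of the 6 libraries. The share of miR-31-5p in the larger run differed from that in the smaller run by a log2 ratio of −0.065 to 0.11, and that of miR-31-3p by −0.17 to 0.13. In 0 h replicate 1, for example, miR-31-5p made up 0.530% of the smaller and 0.507% of the larger run, and in 0 h replicate 2 0.830 and 0.886%. Runs of one library thus lay much closer together in miR-31-5p than the 2 libraries of 0 or 24 h.

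The strand ratio is counted within a library and does not depend on the scaling. For each read of miR-31-3p, the 0 h libraries held 23.3 and 26.8 reads of miR-31-5p, the 24 h libraries 26.2 and 19.3, and the 96 h libraries 18.5 and 23.7. The lowest ratio was found at 96 h and the highest at 0 h, but the time points overlapped. As a share of the reads of both strands, miR-31-3p made up 4.12% (95% Wilson interval 3.78 to 4.48) and 3.6% (3.36 to 3.85) in the 0 h libraries, 3.68% (3.46 to 3.91) and 4.93% (4.65 to 5.21) in those of 24 h, and 5.13% (4.92 to 5.35) and 4.05% (3.85 to 4.25) in those of 96 h. At 24 and at 96 h the intervals of the 2 libraries of one time point were separate, so that the libraries differed by more than counting error. The mean log2 ratio was 4.64 ± 0.14 at 0 h, 4.49 ± 0.31 at 24 h, and 4.39 ± 0.25 at 96 h (SD, n = 2 libraries). Its change relative to 0 h was −0.15 at 24 h and −0.25 at 96 h, and the former turned to 0.068 without 24 h replicate 2. Between 24 and 96 h it was −0.10, which turned positive when 24 h replicate 1 (0.12) or 96 h replicate 1 (0.077) was left out. In the 5 libraries whose runs could be separated, the ratios of the 2 runs differed by a log2 value of −0.085 to 0.12. The ratio counts reads, and reads need not stand for equal numbers of molecules of both strands.

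**Figure D3:**
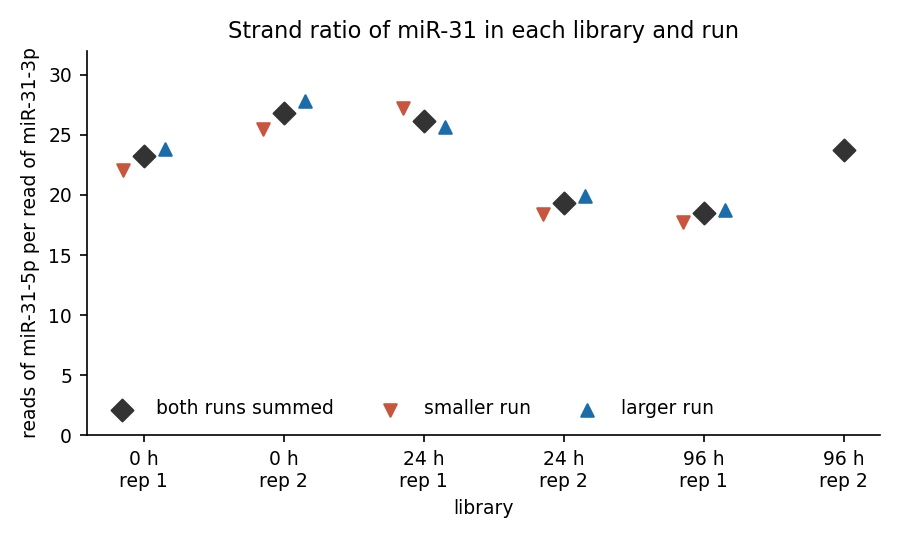
Reads of miR-31-5p per read of miR-31-3p in each of the 6 libraries, with the smaller and the larger run shown beside the summed value where they could be separated. The ratio lies between 18.5 and 26.8 in the summed libraries, and runs of one library lie closer together than the libraries of 24 h.

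Among the 108 precursor names with both strands tested, 58 had more reads of the 5p strand and 50 more of the 3p strand. The mean log2 ratio of miR-31 over all libraries, 4.51, was higher than that of 74.1% of them, and as an absolute preference for either strand it was larger than that of 63.0%. The change of the miR-31 ratio from 0 to 96 h was small by comparison: its absolute value was larger than in 21.3% of the pairs, and the interquartile range of all pairs ran from −0.57 to 0.51 with a median of −0.033. Among the 68 names whose strands both had a mean of at least 10 CPM, miR-31 ranked 26 from the largest fall. The largest falls were those of miR-27b, miR-374a, and miR-25, by log2 values of −1.40, −1.18, and −1.18. The SD between the 0 h libraries was 0.022, 0.52, and 0.30 in the same order. The largest rises were those of miR-17, let-7i, and miR-769, with 1.12, 1.06, and 1.04. Here the SD at 0 h was 0.73, 0.84, and 0.059, so the first 2 rises were not far above it. At 96 h relative to 0 h, both strands had a log2-fold change above 0 in 37 of the 108 pairs, miR-31 among them, both below 0 in 37, and opposite signs in 34. Both strands passed the thresholds in 12 pairs and a single strand in 25, of which miR-31 was 1. The log2-fold change of miR-31-3p exceeded that of miR-31-5p by 0.27 at 96 h, while the median absolute difference between the strands of a pair was 0.55.

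**Figure D4:**
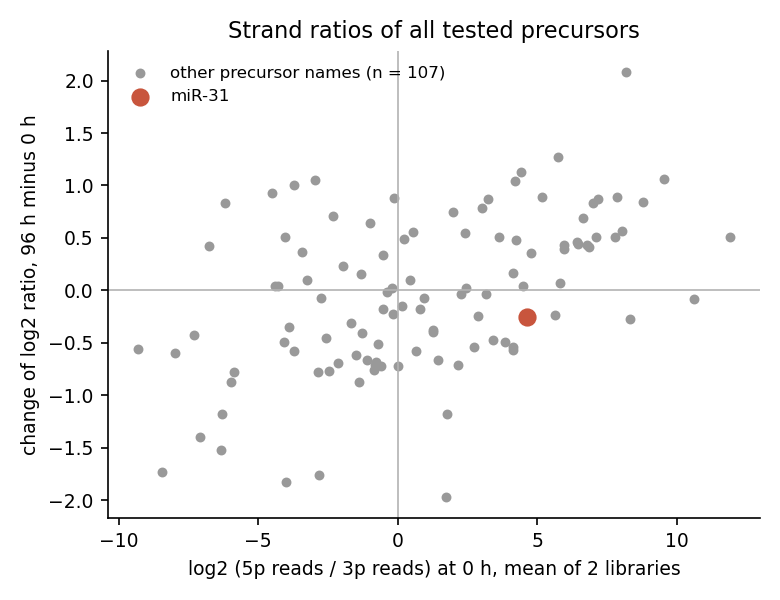
Change of the log2 ratio of 5p to 3p reads from 0 to 96 h against the ratio at 0 h, as means of 2 libraries, for the 108 precursor names with both strands tested. miR-31 lies at a log2 ratio of 4.64 at 0 h with a change of −0.25, within the interquartile range of all pairs.

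In the order of mean levels, miR-31-5p stood at rank 15 of the tested miRNAs at 0 h, between miR-30d-5p with 5621 ± 675 CPM and miR-10a-5p with 5005 ± 775 CPM (SD, n = 2 libraries), and its libraries overlapped with those of both. At 96 h it stood at rank 9, below let-7g-5p with 10219 ± 474 CPM, whose libraries lay just above those of miR-31-5p, and above miR-192-5p with 8583 ± 758 CPM, whose libraries overlapped with it. miR-31-3p moved from rank 110 to rank 86. It overlapped with its neighbours in both orders, miR-30c-2-3p and miR-221-5p at 0 h, and miR-769-5p and miR-143-3p at 96 h.

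The miRNAs whose log2 CPM over the 6 libraries was most like that of miR-31-5p, by Pearson's r among the 321 miRNAs that averaged at least 10 CPM, were miR-181d-5p (r = 0.997), miR-299-3p (0.982), miR-181b-5p (0.975), miR-424-5p (0.963), and miR-376c-3p (0.960). miR-181d-5p stood at 268 and 326 CPM in the 0 h libraries, 423 and 334 CPM in those of 24 h, and 406 and 435 CPM in those of 96 h, with 24 h replicate 1 above 24 h replicate 2 as in miR-31-5p. For miR-31-3p they were miR-23a-3p (0.988), miR-181a-3p (0.974), miR-136-3p (0.971), miR-485-5p (0.968), and miR-582-5p (0.962). miR-23a-3p stood at 917 and 984 CPM in the 0 h libraries, 1383 and 1282 CPM in those of 24 h, and 1479 and 1469 CPM in those of 96 h. The strands of miR-31 had an r of 0.90 with each other, which placed miR-31-3p at rank 14 for miR-31-5p and miR-31-5p at rank 33 for miR-31-3p. All these values rest on the same 6 libraries, which share their depth and scaling, and are given as a description.

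Of the other miRNAs listed for the short arm of chromosome 9, 3 were tested. miR-491-5p, from the nearest other miRNA gene, was counted 11 and 21 times in the 0 h libraries, 9 and 9 in those of 24 h, and 6 and 16 in those of 96 h. For miR-873-5p these were 17 and 43, 23 and 22, and 14 and 21 reads. Of the 10 mature miRNAs listed for this arm, 5 were tested, and 1 passed both thresholds at 96 h relative to 0 h, which was miR-31-3p itself. Of all tested miRNAs, 25.9% passed them in this comparison. miR-101-3p, which has a second precursor elsewhere in the genome, ranged from 1246 to 2426 CPM over the 6 libraries, above miR-31-3p and below miR-31-5p, and at 96 h it changed by 0.62 on the log2 scale (standard error 0.17). Without the strands of miR-31 the median of the 3 others was −0.90 at 96 h, and with them 0.62. The former is the value of miR-491-5p alone (standard error 0.59). miR-873-5p changed by −1.14 (standard error 0.46). Both had few reads, and neither passed the thresholds.

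In a list of 8 miRNAs known for roles in invasion and metastasis, with miR-31-5p among them, 5 were tested. Of these, 0 passed both thresholds in any comparison by edgeR or by DESeq2. In edgeR, 25.9% of all tested miRNAs passed at 96 h and 3.46% at 24 h relative to 0 h, and 5.91% between 24 and 96 h. In DESeq2, 112, 15, and 27 of the 491 passed in the same order. At an unadjusted p under 0.05 in edgeR's quasi-likelihood test there were, without miR-31-5p, 2 of 4 at 96 h and 0 of 4 at 24 h relative to 0 h, and 1 of 4 between 24 and 96 h. The shares of all tested miRNAs at that p were 55.8%, 28.3%, and 31% in the same order. Without miR-31-5p, the median log2-fold change of the list was 0.44 at 96 h, and with it 0.74, against −0.099 for all tested miRNAs. miR-10b-5p, described as a promoter of metastasis, changed by 0.77 on the log2 scale (standard error 0.16) at 96 h, close to that of miR-31-5p. miR-335-3p had 0.74 (standard error 0.27), but miR-335-5p, from the same precursor, had −0.0066 (standard error 0.26). miR-126-3p, a miRNA of endothelial cells, had 0.13 (standard error 0.15).

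Of 15 miRNAs linked to EMT, 13 were tested, and at 96 h 1 passed both thresholds as higher than at 0 h and 0 as lower, where 25.9% of all tested miRNAs passed. DESeq2 called 2 of the 13, the second being miR-21-5p, and 112 of all 491 tested miRNAs. In edgeR's quasi-likelihood test, 7 of the 13 had an unadjusted p under 0.05, against 55.8% of all tested. The miRNA called by both tools was miR-200b-3p, a repressor of the ZEB transcription factors, with 123 and 144 reads in the 0 h libraries, 650 and 442 in those of 96 h, and a log2-fold change of 1.60 (standard error 0.20). The list had a median log2-fold change of 0.20 at 96 h and 0.12 at 24 h, below the values of both miR-31 strands. At 24 h, 0 of the 13 passed the thresholds in edgeR or DESeq2, where 3.46% of all 491 tested miRNAs passed in edgeR and 15 in DESeq2. Of the 13, 3 had an unadjusted p under 0.05 in edgeR's quasi-likelihood test, against 28.3% of all tested.

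Summed TMM-normalized levels were higher after TGF-β than before in 2 of the marker lists, fibroblast and epithelial. Of 5 fibroblast miRNAs, 2 were tested, miR-143-3p and miR-145-5p. Both passed the thresholds as higher at 96 h than at 0 h, as did 12.6% of all tested miRNAs. miR-145-5p had 1 and 0 reads in the 0 h libraries, 3 and 4 in those of 24 h, and 29 and 25 in those of 96 h. It thus passed the filter on low counts only through the 96 h libraries, where it was high, and its call carries no weight. List sums were 5.37 to 8.79 CPM at 0 h, 100 to 105 CPM at 24 h, and 418 to 452 CPM at 96 h. Nearly all of this was miR-143-3p, whereas miR-214-3p was at 0 in every library and miR-199a-5p had 0 to 4 reads. The epithelial list summed to 126 CPM in both libraries of 0 h and to 164 to 191 CPM at 24 h. At 96 h it summed to 246 to 254 CPM. At 96 h relative to 0 h, 1 of 6 tested members passed the thresholds, miR-200b-3p, where 25.9% of all tested miRNAs passed. The members did not move alike. Their log2-fold changes were 1.60 for miR-200b-3p, 0.81 for miR-200a-3p, and 0.75 for miR-203a-3p. They were 0.20 for miR-429, −0.035 for miR-200c-3p, and −1.14 for miR-141-3p, which had 5 to 13 reads. The 5 blood miRNAs, of which 0 were tested, summed to 3.88 to 5.49 CPM at 0 h, 2.14 to 2.61 CPM at 24 h, and 1.13 to 1.36 CPM at 96 h. This list was thus lower after TGF-β, but on few reads. miR-142-3p had 12 and 7 reads in the 0 h libraries and 2 and 1 in those of 96 h. The list also held 2 miRNAs, miR-223-3p and miR-150-5p, that were at 0 throughout. Both strands of miR-126 together had 404 to 515 CPM, and 0 of the 2 passed the thresholds in edgeR or DESeq2. Relative to 0 h, 3.46% of all 491 tested miRNAs passed at 24 h and 25.9% at 96 h in edgeR, and 15 and 112 in DESeq2. Of the 2 strands, 1 at 24 h and 0 at 96 h had an unadjusted p under 0.05 in edgeR's quasi-likelihood test. Of all tested miRNAs, 28.3% and 55.8% reached that p. The part of these markers in the levels of miR-31 was not tested.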

How the data were processed

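Small RNA libraries of A549 cells were prepared with an Illumina kit and sequenced on a HiSeq instrument. The authors deposited counts from miRDeep2, whole reads per mature miRNA and precursor with both runs of a library summed, and normalized values, a signal that adds both runs after scaling each to a common total. Versions of the reference miRNAs and mapping settings are not given in the sources used here; hg19 and FastQC come from the submitters' processing notes. Of the normalized columns, 1 repeats another and was not used. Runs were separated by finding whole reads that gave both deposited values (tolerance 0.0101), which held for every entry above 0 in 5 libraries. For each mature miRNA the precursor entry with the highest total was used.

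Counts were analysed with edgeR 4.0.16 in R 4.3.3: TMM, filterByExpr with a minimum count of 10, and a quasi-likelihood fit of time point over 6 libraries with Benjamini-Hochberg adjustment, with DESeq2 1.42.0 as an alternative. Differential expression required both an absolute log2-fold change above 1 and an adjusted p under 0.05. Standard errors are the absolute log2-fold change divided by the square root of F. Likeness used log2 CPM with a prior count of 1, and strand ratios across precursors a pseudocount of 0.5. Folding used ViennaRNA 2.7.2, and positions GENCODE release 44 on GRCh37. The procedure was tested on simulated data with as many rises as falls, which was not built to test the choice of scaling. The members, lists and fits were chosen with earlier results of these data known. Other miRNAs were named by rule: a shared seed, neighbours in level, the 5 most alike of each strand, the 3 largest rises and falls of the strand ratio, and list members that passed the thresholds. miR-10b-5p, miR-126-3p, both strands of miR-335, miR-873-5p, miR-101-3p and the marker miRNAs were named from their lists after values were seen.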

Additional observations from a re-analysis of the deposited data

How the results depend on the processing

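Both strands kept a positive log2-fold change at 24 and 96 h relative to 0 h under all alternatives. With total counts, however, that of miR-31-5p at 96 h was 0.055, less than its standard error of 0.26. The call of miR-31-3p at 96 h was lost when libraries were scaled to total counts (0.32) or to totals without miR-21-5p (0.71), and under a filter on a mean of at least 10 CPM (0.92). Between 24 and 96 h the direction reversed with total counts, to −0.26 for miR-31-5p and −0.14 for miR-31-3p. Leaving out each library in turn gave, for miR-31-5p, 0.35 to 0.92 at 24 h, 0.60 to 1.09 at 96 h, and 0.0100 to 0.49 between 24 and 96 h. For miR-31-3p it gave 0.65 to 0.94, 0.96 to 1.25, and 0.27 to 0.48. The change of the log2 strand ratio ran from −0.37 to 0.068, −0.43 to −0.075, and −0.32 to 0.12. Numbers of differentially expressed miRNAs ran from 4 to 36 at 24 h (17 with all libraries), with 4 without 24 h replicate 2, 5 without 24 h replicate 1, and 36 without 0 h replicate 1. They ran from 93 to 142 at 96 h (127), and from 9 to 46 between 24 and 96 h (29), with 46 and 44 without 0 h replicates 1 and 2, 9 without 24 h replicate 1, and 11 and 16 without 96 h replicates 1 and 2.

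Total counts gave 33, 215, and 72 differentially expressed miRNAs in the same order, and total counts without miR-21-5p gave 26 at 24 h. Between 24 and 96 h there were 46 without a filter, 17 under the filter at 10 CPM, and 44 with only the time points compared. Without miR-21-5p, mean shares at 0, 24, and 96 h were 1.49 ± 0.45, 2.01 ± 0.55, and 2.02 ± 0.20% for miR-31-5p (SD, n = 2 libraries). For miR-31-3p they were 0.0589 ± 0.0123, 0.0877 ± 0.0053, and 0.0962 ± 0.0073%. The 24 h libraries of miR-31-5p, at 2.39 and 1.62%, overlapped with those of 0 h, at 1.17 and 1.81%. Those of 96 h stood at 1.88 and 2.16%. With all precursor entries in the total, miR-31-3p had 0.0342% at 24 h and 0.0316% at 96 h. By the labels, each library had 1 run on a date shared by all libraries and 1 on a later date. The later date was the same for both 24 h libraries, and another for both 96 h libraries. The 0 h libraries had 1 of each. Between 24 and 96 h, the later date and the time point thus cannot be told apart. Alternatives by run date were not run, since the counts do not show which separated run had which date. The larger and the smaller runs, compared after the data had been seen, could be had for 5 libraries, with 1 at 96 h, assumed to vary like the other groups. They gave 0.63 and 0.60 for miR-31-5p and 1.11 and 1.03 for miR-31-3p at 96 h, where both runs of the same 5 libraries gave 0.75 and 1.2.

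With the replicate number as a block, miR-31-3p at 96 h was 1.07 and miR-31-5p 0.80, no call of either strand changed, and 20, 124, and 41 miRNAs were differentially expressed. The deviations of same-numbered libraries correlated by 0.29 for 0 and 96 h, but by −0.30 for 0 and 24 h and −0.17 for 24 and 96 h over 491 miRNAs, so the numbers were not taken to pair the samples.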
